A study of Mus musculus with 24 samples.

Results

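The genes described are 10 imprinted growth genes of the mouse (H19, Igf2, Meg3, Rian, Dlk1, Peg3, Mest, Ndn, Snrpn and Cdkn1c), followed in liver, brain, heart and skeletal muscle of wild-type (WT) males and males homozygous for the Rap1 I312R knock-in allele (Rap1 KI/KI). They were chosen by name, and their probes by RefSeq accession: 17 of the 55681 non-control probes of the array belonged to 9 of the 10 genes, and no probe was found for Rian. Across the array 28331 probes could be given a gene name, standing for 21368 genes. A gene with several probes is represented by the brightest one over all arrays, and its other probes are given where they differ.

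An imprinted gene is transcribed mainly from the copy inherited from a single parent, a choice set by DNA methylation laid down in the egg or sperm and read by nearby control regions. Many such genes act on growth before and shortly after birth: paternally expressed Igf2 codes for an insulin-like growth factor, Dlk1 for a transmembrane ligand-like protein that restrains adipocyte differentiation, Peg3 for a zinc-finger protein, Mest for a hydrolase-fold protein, Ndn for the MAGE-family protein necdin and Snrpn for a spliceosomal protein of the Prader-Willi region. Maternally expressed H19, Meg3 and Rian are long non-coding RNAs, and maternally expressed Cdkn1c codes for the cyclin-dependent kinase inhibitor p57. Several of these genes are known to be bright in the fetus and to fall during the weeks after birth, with H19 remaining high in skeletal muscle and Meg3 and Snrpn in neurons. The arrays measured total transcript and did not separate the parental alleles.

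The 24 arrays came from 6 untreated male mice, 3 WT and 3 Rap1 KI/KI, each giving all 4 tissues. The knock-in line was crossed back 4 times to C57BL/6N mice (C57BL6 in the labels). The allele, made with CRISPR/Cas9 and present in every cell, replaces a residue of RAP1 (gene Terf2ip) needed for binding TRF2, so that the protein does not sit at telomeres. Mice WT1 and KI1 are labelled 5 months old, and mice WT2, WT3, KI2 and KI3 are labelled 2 months old. The labels do not say how many founders the knock-in line had. Levels are log2 signal relative to the 75th percentile of the same array: a level of 0 is that percentile, and a difference of 1 is a doubling. Levels of different probes depend on the probe's sequence and are not compared with each other.

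The sequences that bear on these genes are printed from RefSeq (GRCm38.p6). Of the 10 genes, 5 contain mature microRNAs inside the gene body, 15 in all. The 8 arms of 1 hairpin each in 4 measured genes are shown, because the transcripts measured here include their hosts, and 7 are not: 6 of Rian, which had no probe, and miR-1906 of Meg3. The arrays measured the host transcripts and not the mature microRNAs. The seed (bases 2 to 8) is in capitals. The hosts are H19 (miR-675, chr7:142577078-142577133, minus strand), Igf2 (miR-483, chr7:142654932-142654989, minus strand), Mest (miR-335, chr6:30741314-30741375, plus strand) and Meg3 (miR-770, chr12:109563710-109563765, plus strand).
miR-675-5p: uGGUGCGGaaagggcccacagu
miR-675-3p: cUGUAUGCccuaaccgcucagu
miR-483-5p: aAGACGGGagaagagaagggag
miR-483-3p: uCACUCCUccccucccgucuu
miR-335-5p: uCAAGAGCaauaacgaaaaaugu
miR-335-3p: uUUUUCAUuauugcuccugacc
miR-770-5p: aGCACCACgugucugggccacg
miR-770-3p: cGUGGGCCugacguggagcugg
The 8 arms carry 8 different seeds.

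The 250 bases before a listed transcription start are shown for Meg3, Peg3 and Mest, the genes with the 3 widest age differences in muscle, with each CG dinucleotide (the site of DNA methylation) in capitals. Mest is listed with 3 starts, of which the first and the next, 4544 bases apart, are shown, since they bear on its probes below, and Meg3 is shown at its first start. Meg3 lies on chr12:109540746-109540995 (plus strand), Peg3 on chr7:6730420-6730669 (minus strand), and the Mest windows on chr6:30733256-30733505 and chr6:30737800-30738049 (plus strand). The listed span of the Peg3 gene reaches to 6730462, so the last bases of its window lie inside the gene.
Meg3: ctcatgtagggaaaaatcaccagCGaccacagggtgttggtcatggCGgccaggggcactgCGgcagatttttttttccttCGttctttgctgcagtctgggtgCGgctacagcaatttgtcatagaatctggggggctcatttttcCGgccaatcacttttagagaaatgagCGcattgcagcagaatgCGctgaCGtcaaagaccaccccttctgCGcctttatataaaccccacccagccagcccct
Peg3: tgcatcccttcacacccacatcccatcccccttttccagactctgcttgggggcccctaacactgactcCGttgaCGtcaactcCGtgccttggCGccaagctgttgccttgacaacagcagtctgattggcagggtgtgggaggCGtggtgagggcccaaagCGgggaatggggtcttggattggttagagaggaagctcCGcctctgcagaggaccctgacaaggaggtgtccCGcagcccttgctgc
Mest upstream start: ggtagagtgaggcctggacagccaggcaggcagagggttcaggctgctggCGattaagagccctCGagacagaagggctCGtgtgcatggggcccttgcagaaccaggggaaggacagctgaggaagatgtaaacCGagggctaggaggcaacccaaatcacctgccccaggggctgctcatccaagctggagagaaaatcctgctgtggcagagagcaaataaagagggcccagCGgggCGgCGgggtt
Mest downstream start: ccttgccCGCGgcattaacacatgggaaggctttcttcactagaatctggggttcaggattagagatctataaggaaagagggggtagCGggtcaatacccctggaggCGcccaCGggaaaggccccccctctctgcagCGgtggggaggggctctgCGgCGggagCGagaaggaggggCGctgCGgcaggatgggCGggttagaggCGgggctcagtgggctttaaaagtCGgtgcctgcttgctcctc
The windows hold 10 (Meg3), 8 (Peg3), 7 (Mest, upstream) and 14 (Mest, downstream) CG dinucleotides. The median over 32851 promoters of the same length was 6, and the number in the 4 windows exceeded that of 62.2%, 57%, 53.7% and 70.6% of promoters, respectively. No methylation was measured.

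The labelled tissues carried their own markers. Summed levels (log2 of the summed signal over a list) of 8 hepatocyte markers were 11.01 to 11.91 in liver and 3.25 to 5.61 elsewhere, those of 8 skeletal muscle fibre markers 11.87 to 12.29 in muscle and at most 7.62 elsewhere, and those of 8 cardiomyocyte markers 10.93 to 11.72 in heart and at most 5.97 elsewhere. Summed neuron markers were 8.16 to 8.87 in brain and at most 5.88 elsewhere. Summed glia markers did not set brain apart, at 6.38 to 7.40 in brain, 5.89 to 7.36 in heart and up to 6.69 in muscle. The probe for Terf2ip was well above background on all 24 arrays and differed between genotypes by -0.41 to 0.12, but a point mutation leaves no mark on it. Arrays of liver and of 2 brains shared slide 1, those of 4 brains and 4 hearts slide 2, and those of 2 hearts and all muscles slide 3. RNA was extracted with 1 kit from liver and brain and with another from heart and muscle. Kit and tissue cannot be told apart where liver or brain is compared with heart or muscle. Brain and liver shared a kit, as did muscle and heart.

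H19 and Igf2 are neighbours on distal chromosome 7 (H19 at 142575530-142578146 and Igf2 at 142650768-142666816), with a shared set of enhancers. H19 was highest in skeletal muscle and next in heart, and was low in liver and brain. In muscle its level was 6.70, 7.38 and 7.77 in WT1 to WT3 and 7.41, 7.47 and 8.24 in KI1 to KI3. In heart it was 2.88, 4.32 and 4.38 in WT and 4.31, 4.36 and 4.61 in Rap1 KI/KI mice. Every muscle exceeded every heart, and every heart exceeded all livers (-3.09 to -0.98) and all brains (-4.02 to 0.05). Muscle exceeded heart by 3.35 on the log2 scale (SE 0.46, adjusted p = 6.36e-06, limma over 42322 probes, as for all tissue differences below), brain by 10.47 (SE 0.46, adjusted p = 2.38e-13) and liver by 9.93, while heart exceeded brain by 7.12 and liver by 6.58. The difference of brain from liver was -0.54 (SE 0.46, adjusted p = 0.286), and -1.01 over the 12 WT arrays alone (adjusted p = 0.0438).

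Igf2 did not follow this order. Its level was below the array's 75th percentile in every sample and ranged from -2.86 to -2.04 in brain, -4.06 to -1.81 in heart, -4.04 to -1.71 in muscle and -5.39 to -4.39 in liver, where 5 of 6 arrays were well above background. The liver was lower than each other tissue, by 2.24 against brain (SE 0.39, adjusted p = 3.12e-05), 2.06 against heart and 1.76 against muscle. Among brain, heart and muscle the differences were between -0.48 and -0.17 for the 3 pairs (muscle minus heart -0.31), with adjusted p of 0.277 to 0.706. With slide as a covariate muscle was lower than brain by 2.01 (difference -2.01, adjusted p = 0.0117) and its difference from heart was -1.28 (adjusted p = 0.0479). In brain both Igf2 and H19 had their highest level in KI3.

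Meg3 and Dlk1 lie in the Dlk1-Dio3 domain of chromosome 12 (Meg3 at 109540996-109571729, Dlk1 at 109452485-109463336) and are expressed from opposite parental chromosomes. Meg3 was highest in brain, then muscle and heart, and lowest in liver. Its brain level was 4.41, 6.37 and 6.48 in WT and 5.11, 4.44 and 6.16 in Rap1 KI/KI mice, and its liver level -2.11 to -0.48 over the 6 mice. Brain exceeded liver by 6.65 (SE 0.52, adjusted p = 4.55e-10), heart by 3.13 and muscle by 1.96 (adjusted p = 0.00223). Muscle and heart, with ranges of 1.97 to 4.91 and 0.69 to 3.67, differed by 1.16 (SE 0.52, 95% interval 0.08 to 2.24), which missed the threshold after adjustment (adjusted p = 0.0766) but passed it after normexp background correction (1.12, adjusted p = 0.0415) and with the mean over the probes of a gene (1.39, adjusted p = 0.0497).

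Dlk1 split the tissues into a bright and a dim pair. Its level was -0.22 to 2.57 in brain and -0.34 to 0.97 in muscle, against -4.88 to -1.42 in heart and -4.54 to -3.12 in liver. Muscle exceeded heart by 4.00 (SE 0.50, adjusted p = 2.05e-06), the widest muscle-to-heart gap among the 9 genes, and liver by 4.34, and brain exceeded liver by 5.36. Muscle minus brain was -1.02 (adjusted p = 0.0768) and heart minus liver 0.35 (adjusted p = 0.558). The first passed the threshold under 3 alternatives: after normexp (-0.94, adjusted p = 0.0178), with the authors' z-scores (adjusted p = 0.0363) and with slide as a covariate (-2.41, adjusted p = 0.0276).

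Peg3 (chromosome 7 at 6703892-6730462), known from maternal behaviour and growth of the mouse, was highest in brain, at 1.08, 1.57 and 1.49 in WT and 1.35, 1.36 and 0.27 in Rap1 KI/KI mice. Muscle (-2.53 to -0.28) and heart (-3.89 to -0.56) followed, and liver (-5.23 to -3.81) was lowest. Brain exceeded liver by 5.67, heart by 3.47 and muscle by 2.57 (SE 0.46 for each, adjusted p at most 5.84e-05), and muscle minus heart was 0.91 (adjusted p = 0.122), or -0.31 with slide as a covariate. Mest (chromosome 6 at 30733506-30748466) had the narrowest span of means. Its level was 0.23 to 1.04 in heart, 0.10 to 1.37 in brain, -1.29 to 0.48 in muscle and -1.56 to -0.52 in liver. Heart and brain differed by 0.14 (adjusted p = 0.704), muscle was 0.97 below heart (adjusted p = 0.0145) and 0.97 above liver (adjusted p = 0.00783). Both of these missed the threshold with the mean over probes (-0.64 and 0.55) and with slide as a covariate (-0.93 and 0.85).

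Ndn and Snrpn lie in the Prader-Willi region of chromosome 7 (Ndn at 62348277-62349928, Snrpn at 59982495-60450177) and were both highest in brain and lowest in liver. Ndn, which acts in differentiating neurons, was at 1.72 to 3.27 in brain and Snrpn at 4.80 to 5.91. Brain exceeded each other tissue for both genes, by 3.67 to 5.18 for Ndn and by 2.93 to 4.43 for Snrpn. Heart and muscle were not told apart for either gene: muscle minus heart was 0.02 for Ndn (SE 0.25, 95% interval -0.50 to 0.54) and -0.01 for Snrpn (SE 0.24, 95% interval -0.52 to 0.49). Liver was lowest for both, at -3.22 to -2.27 and 0.18 to 1.60.

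Cdkn1c, the p57 inhibitor of the cell cycle (chromosome 7 at 143458339-143461059), was high in the striated muscles. Its level was 3.47 to 4.28 in muscle, 2.96 to 3.99 in heart, 0.82 to 1.50 in brain and -0.63 to 0.25 in liver, with no overlap between the last 3. Muscle exceeded liver by 4.06 (SE 0.18, adjusted p = 1.22e-13) and brain by 2.69, and muscle minus heart was 0.41 (adjusted p = 0.0724), or 0.42 after normexp (adjusted p = 0.0369).

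**Figure D1:**
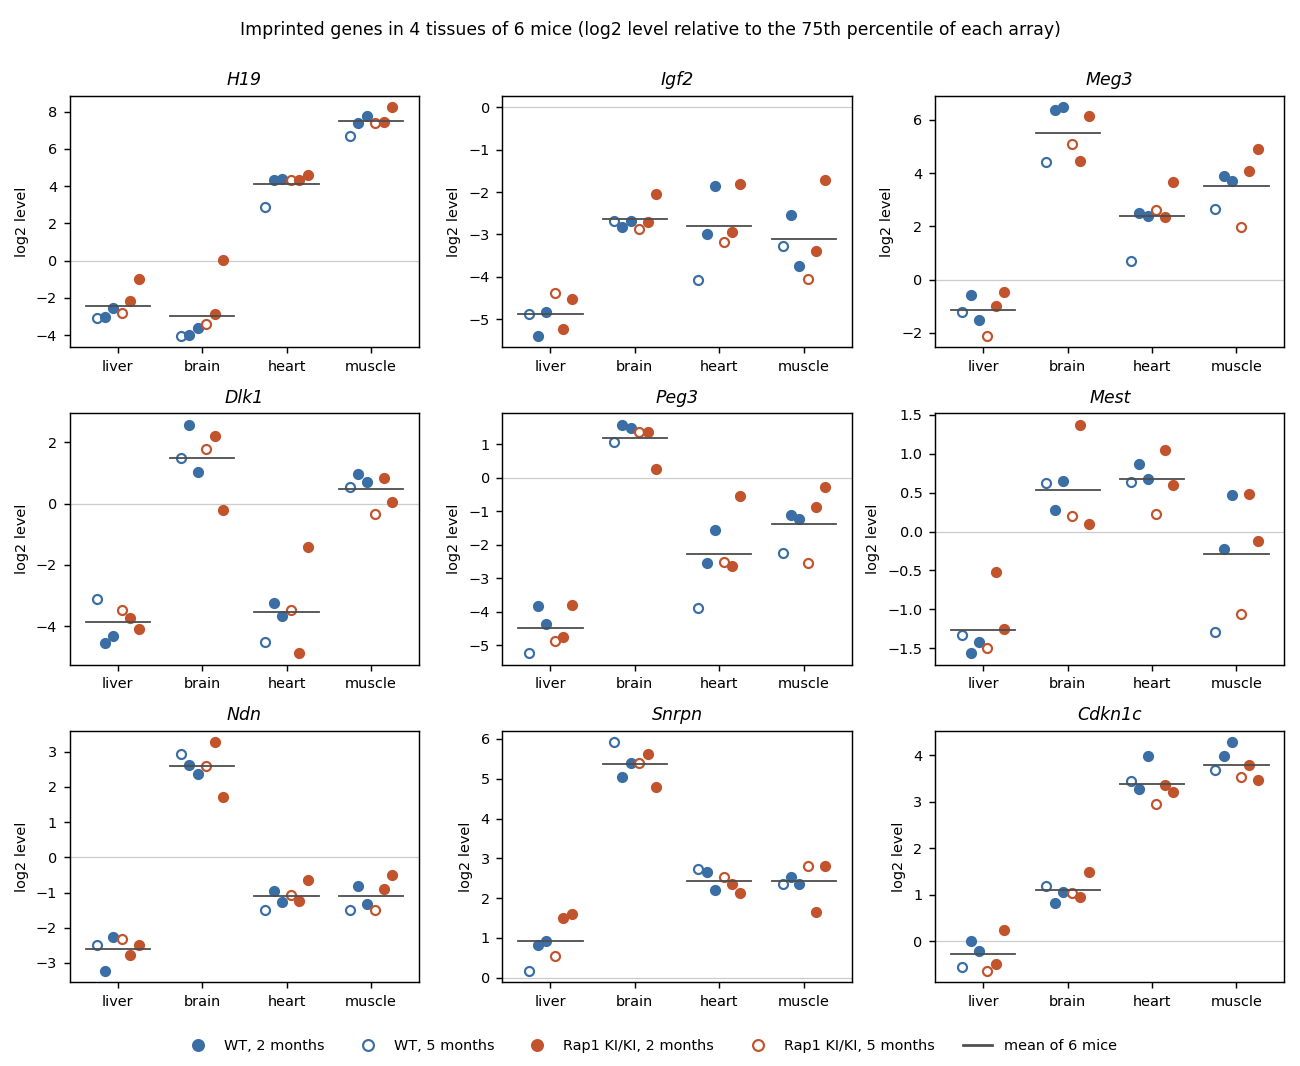
Level of each gene's representative probe on the 24 arrays (log2 relative to the array's 75th percentile, vertical axis) by tissue, with WT and Rap1 KI/KI mice side by side, open symbols for the mice labelled 5 months and a line at the mean of the 6 mice. H19 stands at 6.70 to 8.24 in muscle, brain is highest for Meg3, Peg3, Ndn and Snrpn, and liver is lowest for 8 of the 9 genes by mean.

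Over the 9 genes, the mean was lowest in liver for 8, with H19 as the exception (lowest mean in brain). Tested pair by pair with an adjusted p under 0.05, 9 of 9 genes differed between muscle and liver (71.1% of all probes tested), 8 between heart and liver (66.7%), 8 between brain and liver (79%), 7 between muscle and brain (70.1%), 7 between heart and brain (67.6%) and 3 between muscle and heart (43.4%). These shares lie near the array's own background, so the count of differences says little about imprinted genes beyond the differences between tissues at large. By direction, liver was lower than each of the other 3 tissues for 7 of 9 genes (Igf2, Meg3, Peg3, Mest, Ndn, Snrpn and Cdkn1c), against 16.8% of probes, brain was higher than each other tissue for 4 of 9 (Meg3, Peg3, Ndn and Snrpn), against 17.5%, and muscle for 1 of 9 (H19), against 10.2%. Between arrays of the same mouse and slide, which exist for 2 mice a pair, muscle minus heart was 3.51 for H19 (3.39 and 3.63) and 2.94 for Dlk1 (1.48 and 4.40), heart minus brain was 7.78 for H19 and -4.06 for Peg3, and brain minus liver was 6.43 for Meg3 and 6.27 for Peg3. For muscle against liver, muscle against brain and heart against liver no slide held both arrays of a mouse. With slide as a covariate the count of genes that differed was 5 for muscle against liver and 5 for heart against liver, and the muscle-to-liver difference of Igf2 was 0.08 (adjusted p = 0.942). Liver was then lower than each other tissue for 3 of 9 genes (Ndn, Snrpn and Cdkn1c; 8.49% of probes) in place of 7. Brain was higher than each other for 5 (15.1%), Dlk1 being added, and muscle for 1 (6.82%).

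The probes of a gene did not always give the same tissue pattern. For Mest, the representative probe (NM_008590) gave the same level in heart and brain within error, but both probes of the transcript variant NM_001252292 were higher in brain: heart minus brain was -2.02 (SE 0.26) and -2.94 (SE 0.36) for these, or -2.16 (SE 0.14) and -3.08 (SE 0.36) relative to the representative probe. Whether either accession begins at either printed Mest start was not given in the tables used. For Snrpn, a probe of NM_001082962 had a heart-to-brain difference of -5.48, which was -2.55 (SE 0.20) relative to the representative probe's -2.93. For Meg3, the probe of NR_003633 gave heart minus brain of -7.61, -4.48 (SE 0.46) relative to the representative, and was well above background in 5 of 6 hearts and in no liver. Such disagreement was common on the array: 48.7% of 6085 pairs of a probe and its gene's representative probe differed in heart minus brain at an adjusted p under 0.05. The probes of Dlk1 gave the same heart-to-brain difference within error (0.29, SE 0.28), with 2 of 6 hearts well above background for the dimmer one.

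**Figure D2:**
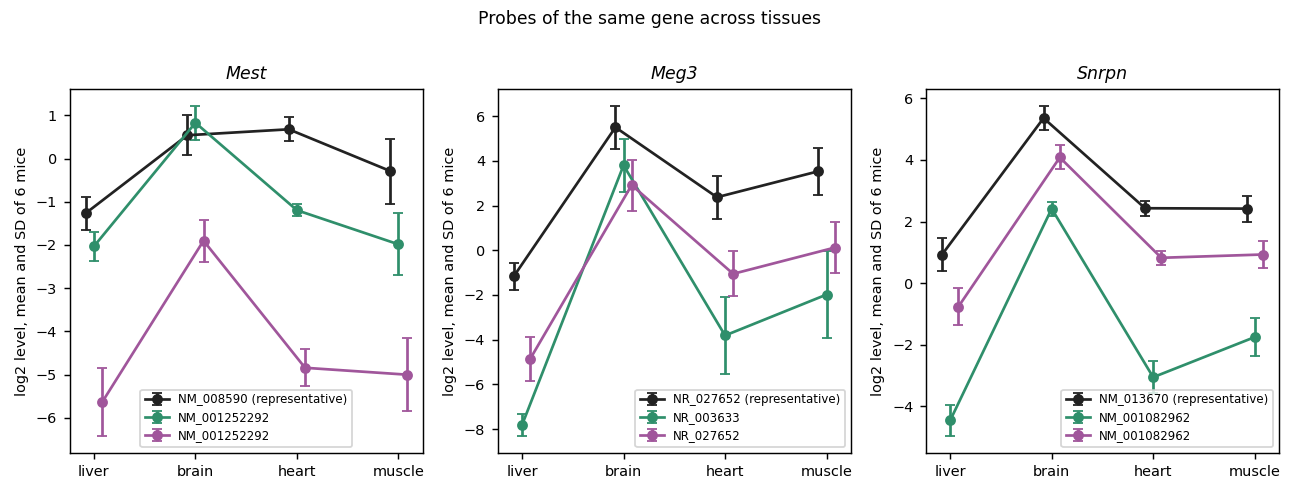
Mean level (log2 relative to the array's 75th percentile) and SD of 6 mice for each probe of Mest, Meg3 and Snrpn in the 4 tissues, labelled by RefSeq accession. The NM_001252292 probes of Mest drop from brain to heart by 2.02 and 2.94, while the NM_008590 probe does not.

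The comparison of genotypes asks whether these transcripts differ in mice with the mutated RAP1. The paper reports less RAP1 protein and a larger cytosolic share of it in Rap1 KI/KI fibroblasts and brain. The comparison therefore does not single out the absence from telomeres. None of the 9 genes differed between Rap1 KI/KI and WT mice at an adjusted p under 0.05 in any tissue (limma, 3 against 3 mice), nor did any of the 32343 to 37800 probes tested per tissue (0% called). The paper does report significantly altered transcripts in liver, brain, heart and muscle of young Rap1 KI/KI males. Its text refers to earlier work for the array procedure and does not state the test, so the 2 results rest on unlike criteria. At an unadjusted p under 0.05, 0 of 9 genes passed in each tissue, against 2.13% of probes in liver, 2.62% in brain, 7.51% in heart and 2.47% in muscle. Differences (Rap1 KI/KI minus WT, log2) ranged over the 9 genes from -0.08 to 0.88 in liver, -0.52 to 1.81 in brain, -0.41 to 1.01 in heart and -0.56 to 0.42 in muscle. The intervals for Meg3 were wide with 3 mice a group: the difference was 1.01 in heart (95% interval -0.35 to 2.37), -0.52 in brain (-2.18 to 1.15) and 0.24 in muscle (-1.51 to 1.99). They left room for more than a doubling or a halving of Meg3 in brain and muscle, and for more than a doubling in heart. For Cdkn1c, the most tightly measured, the interval in brain was -0.38 to 0.68. The p-values measure the spread between these 6 mice.

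H19 in brain was the single case among 36 gene and tissue pairs in which the representative probe's values did not overlap between genotypes. Its level was -4.02, -4.01 and -3.61 in WT and -3.39, -2.87 and 0.05 in Rap1 KI/KI mice. All Rap1 KI/KI brains were above all WT brains, and KI3 stood far above the other 5. The marker lists of cell types went both ways in Rap1 KI/KI brains, with overlapping ranges. Summed choroid plexus markers lay higher, at 6.04 to 6.94 (4.72 to 6.05 in WT), with 3 of 8 higher without overlap. Summed fibroblast markers did so too, at 4.41 to 5.82 (3.82 to 4.63 in WT), with 2 of 6, against 5.78% of named genes. Of 8 leptomeningeal markers 2 were higher without overlap, while their sums were 7.54 to 8.15 (7.72 to 7.82 in WT). The choroid plexus list was not particular to brain, summing to 8.19 to 9.14 in liver, 6.14 to 6.72 in muscle and 5.78 to 6.42 in heart. Lower ranges were those of hypothalamus markers (4.06 to 6.36, WT 5.29 to 6.83) and neuron markers (8.16 to 8.71, WT 8.44 to 8.87). Hepatocyte markers (3.31 to 3.91, WT 3.58 to 4.51) and neutrophil markers (0.33 to 2.01, WT 0.47 to 2.33) were lower as well. The part of these cells in the H19 values was not tested. The mean difference was 1.81 (SE 0.88, 95% interval -0.32 to 3.94, adjusted p = 1.000 by limma). Without KI3 it was 0.75. In brain 7.74% of all probes did not overlap between genotypes, with 4.01% higher in Rap1 KI/KI mice. In the other tissues 0 of 9 genes did so, against 5.85% of probes in liver, 14.7% in heart and 6.45% in muscle. Within slide 1 (the brains of 5 months) the difference was 0.63, and within slide 2 (those of 2 months) 2.40. The difference of H19 was above 0 in the other tissues too, with 0.88 in liver (SE 0.46), 0.57 in heart (SE 0.42) and 0.42 in muscle (SE 0.35), all with overlapping groups and from the same 6 mice. A test of whether the genotype difference varied between tissues gave an adjusted p of 1.000 for each of the 9 genes (limma F test). Over all probes 2.92% had an unadjusted p under 0.05, and 0% passed after adjustment.

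The 8 probes not chosen as representatives gave 27 tested pairs of probe and tissue, of which 4 showed no overlap between genotypes, beside the shares of all probes given above: a second Meg3 probe in heart (1.41 higher in Rap1 KI/KI), the NR_003633 probe of Meg3 in muscle (2.36 higher), the dimmer Dlk1 probe in muscle (0.92 lower) and an NM_001252292 probe of Mest in brain (0.76 lower). The brighter probe of each gene overlapped in the same tissue. A further pair without overlap, the dimmer Dlk1 probe in liver, was well above background on 0 of 6 arrays and was not tested. In muscle the NR_003633 probe of Meg3 was at -3.89, -2.87 and -2.72 in WT and -2.19, -1.95 and 1.73 in Rap1 KI/KI mice, so that KI3 again carried the highest value.

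**Figure D3:**
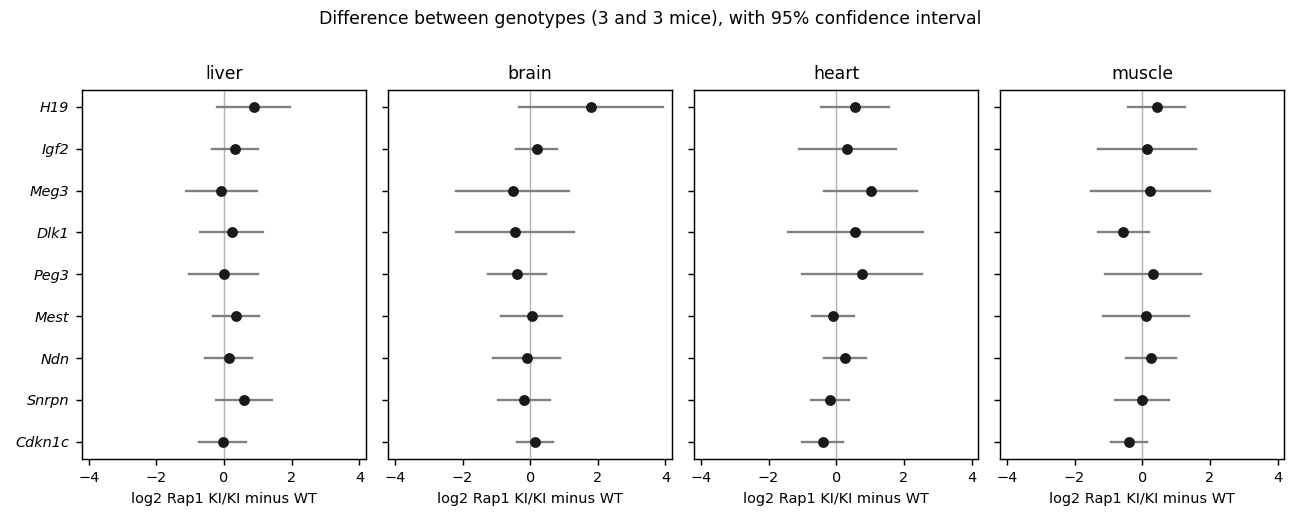
Log2 difference, Rap1 KI/KI minus WT (horizontal axis), of the 9 genes in 4 tissues, with 95% intervals from limma (3 against 3 mice). All intervals include 0, and the widest difference is 1.81 for H19 in brain.

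Single arrays moved several of the genes together. In brain, KI3 had the lowest level of Dlk1 (-0.22), Peg3 (0.27), Mest (0.10), Ndn (1.72) and Snrpn (4.80) among the 6 brains, and the highest of H19, Igf2 (-2.04) and Cdkn1c (1.50), whereas this array was lowest for 33.9% and highest for 16.5% of all probes. Summed markers in that brain also stood apart: 7 hypothalamus markers stood at 4.06 (5.18 to 6.83 in the other 5 brains), 8 neuron markers at 8.16 (8.44 to 8.87) and 7 fibroblast markers at 5.82 (3.82 to 4.63). The part of tissue composition in these values was not tested, and in bulk tissue fewer cells of a type and less RNA per cell cannot be told apart.

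In heart, KI3 was highest of the 6 for H19, Igf2, Meg3, Dlk1, Peg3 and Ndn (18.8% of all probes were highest there), and WT1 was lowest for H19, Igf2, Meg3, Peg3 and Ndn (20.3% of probes lowest). The hearts of KI3 and WT1 also held the highest and the lowest summed fibroblast markers (9.17 and 8.10, others 8.72 to 8.95), and KI3 the highest summed adipocyte markers (9.39, others 7.84 to 8.59). In muscle, KI3 was highest for H19, Igf2, Meg3, Peg3 and Ndn (16.6% of probes), with 8 leptomeningeal markers summing to 4.92 there (0.51 to 1.41 in the others) and neuron markers to 5.88 (4.49 to 4.89). The leptomeningeal list was not particular to brain, summing to 7.54 to 8.15 in brain, 6.57 to 7.93 in heart and 6.51 to 6.89 in liver. KI1 was lowest in muscle for Igf2, Meg3, Dlk1 and Peg3 (12.5% of probes), and there the summed neutrophil markers were 6.54 (-0.33 to 3.67 in the others). In liver KI3 was highest for H19, Meg3, Peg3, Snrpn and Cdkn1c (14.9% of probes). These marker levels were measured beside the genes, and their part in them was not tested.

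**Figure D4:**
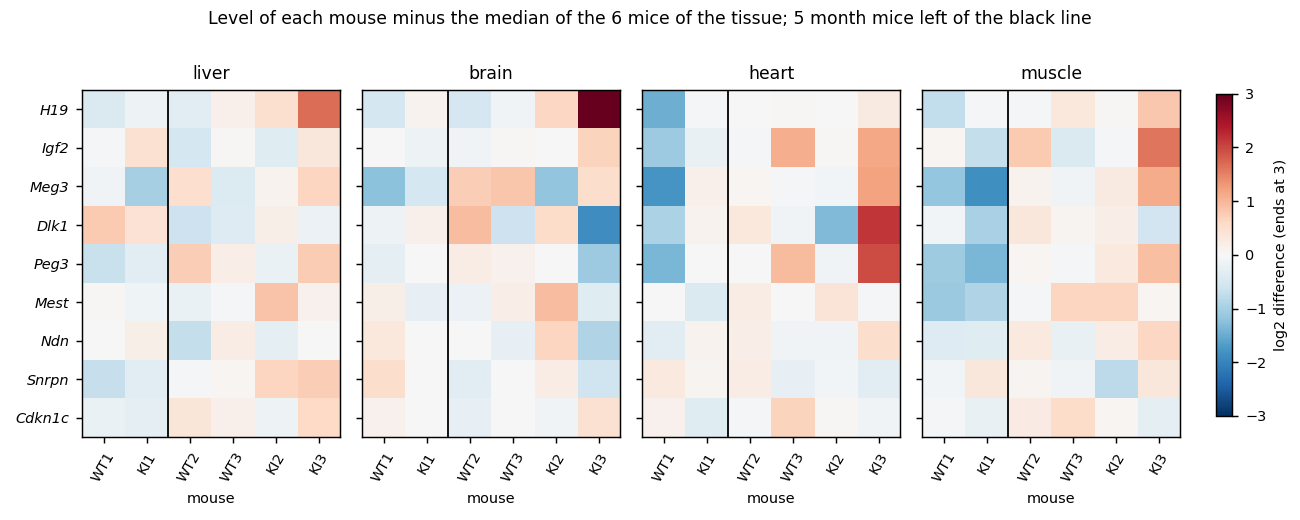
Level of each gene in each mouse minus the median of the 6 mice of that tissue (log2, colour, ending at 3), with the mice labelled 5 months set before those of 2 months. H19 in the brain of KI3 is at the end of the colour scale, and Meg3, Peg3 and Mest in muscle are below the median in WT1 and KI1.

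The sample labels also allow the mice of 5 months (WT1, KI1) to be set against those of 2 months (WT2, WT3, KI2, KI3), with genotype as a term in the fit. None of the 9 genes passed an adjusted p under 0.05 in any tissue, and 1 probe did over all 4 tissues (in liver, 0.00284% of those tested). In muscle, Meg3, Peg3 and Mest were lower at 5 months in both genotypes. Meg3 was at 2.63 and 1.97 in the 5-month mice WT1 and KI1, and at 3.70 to 4.91 in the 2-month mice (4.07 and 4.91 in KI2 and KI3). Peg3 was at -2.25 and -2.53 against -1.11, -1.24, -0.88 and -0.28. Mest was at -1.29 and -1.07 against -0.22, 0.47, 0.48 and -0.12. The 2 ages did not overlap for any of these 3 genes, picked as the widest muscle differences of the 9. The share of all probes without overlap between ages was not counted, so this alone says little about them.

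The differences in muscle (5 minus 2 months, log2) were -1.85 for Meg3 (SE 0.40, adjusted p = 0.677, limma), -1.52 for Peg3 (SE 0.30, adjusted p = 0.631) and -1.33 for Mest (SE 0.30, adjusted p = 0.691). These 3 had an unadjusted p under 0.05, as did 5.93% of all probes in muscle, 3.37% of them lower at 5 months. The other 6 genes were at -0.81 (Igf2), -0.66 (H19), -0.61 (Ndn), -0.54 (Dlk1), -0.27 (Cdkn1c) and 0.25 (Snrpn). In all, 8 of 9 genes had a difference below 0 in muscle, where 39.6% of probes did, and for 6 of 9 (H19, Meg3, Dlk1, Peg3, Mest and Ndn) the 5-month mouse was below both 2-month mice of its own genotype in WT and in Rap1 KI/KI mice, which held for 10.1% of probes and for 8.7% of named genes by their brightest probe. The median difference was -0.66 over the 9 genes and 0.09 over all probes tested. All 6 muscles lay on slide 3. Leaving out each mouse in turn gave -2.52 to -1.17 for Meg3, -1.96 to -1.07 for Peg3 and -1.47 to -1.17 for Mest.

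Fibroblast markers moved the same way in these muscles. Their summed level was 8.39 and 8.60 in WT1 and KI1 and 9.04 to 9.79 in the 2-month mice. Of the markers, 7 of 7 had a difference below 0 (median -0.76), as did 37.7% of named genes. Lower at 5 months in both genotypes were 5 of 7 (8.7% of named genes). These markers were also below 0 in brain for 6 of 6 (median -0.47, 38.8% of named genes) and in liver for 6 of 7 (median -0.23, 31.6%). In brain the 9 imprinted genes did not share this, with a median of 0.04 and 4 below 0. Summed satellite cell markers, the stem cells of muscle, were 3.12 and 3.35 in the 5-month and 2.62 to 3.43 in the 2-month muscles. The part of cell composition in the age differences was not tested.

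In heart summed fibroblast markers were 8.10 and 8.72 in the 5-month and 8.78 to 9.17 in the 2-month mice. There 7 of 7 had a difference below 0 (median -0.40, 49.1% of named genes), and 2 of 7 were lower at 5 months in both genotypes (12.4%). There 8 of 9 genes also had a difference below 0 (52% of probes), with Peg3 at -1.37 (SE 0.63), Igf2 at -1.22 (SE 0.48), Meg3 at -1.09 (SE 0.47) and H19 at -0.82 (SE 0.34), and 3 of 9 were lower at 5 months in both genotypes (15.6% of probes). Within slide 2, which held 2 hearts of each age, these were -0.61, -0.66, -0.79 and -0.74. Without WT1 the heart differences shrank to -0.91 for Peg3, -0.81 for Igf2, -0.42 for Meg3 and -0.17 for H19. In liver 6 of 9 were below 0 (35.6% of probes) and 4 of 9 lower in both genotypes (13.6%). Snrpn was lower there by 0.85 (difference -0.85, SE 0.19, adjusted p = 0.199), Peg3 had a difference of -0.86 and Dlk1 one of 0.87, the latter higher at 5 months in both genotypes (30% of probes). At an unadjusted p under 0.05, 3 of 9 genes differed in liver (17.2% of probes), 1 in heart (7.02%) and 0 in brain (4.95%). In brain 4 of 9 were below 0 (44.5%) and 1 was lower in both genotypes (8.14%), and there age and slide cannot be told apart.

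H19 was the 1 gene of the 9 whose 5-month mouse was below both 2-month mice of its genotype in all 4 tissues, with differences of -0.78 in liver, -1.10 in brain, -0.82 in heart and -0.66 in muscle (adjusted p of 0.353 to 0.788, limma). In brain the margin in WT mice was slight, with -4.02 in WT1 and -4.01 in WT2, and the difference was -0.35 without KI3, -0.22 without KI1 and -1.98 without WT1. In liver it was -0.46 without KI3, -0.33 without KI1 and -1.23 without WT1, in heart -0.17 without WT1 and -1.47 without KI1, and in muscle it ranged from -0.88 to -0.45 as each mouse was left out. Of 13959 named genes tested in all 4 tissues, 6 (0.043%) were lower in this sense in all 4, and 27 (0.193%) were higher. The 2 mice of 5 months gave all these tissues, so the 4 differences are not independent of each other.

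**Figure D5:**
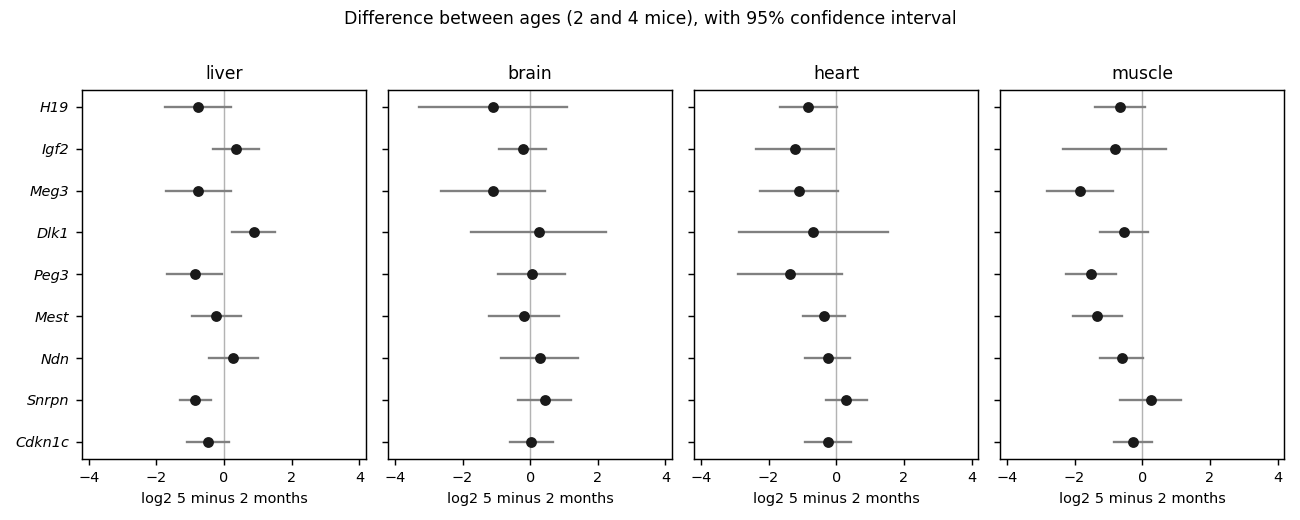
Difference between mice labelled 5 and 2 months (log2, horizontal axis) of the 9 genes in 4 tissues, with 95% intervals from limma with a genotype term (2 against 4 mice). The intervals of Meg3, Peg3 and Mest in muscle lie below 0, at differences of -1.85, -1.52 and -1.33, and none passes adjustment over all probes.

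Neighbouring and other imprinted genes were read from lists of their domains. In the Dlk1-Dio3 domain, Mirg, a non-coding RNA from the same maternal chromosome as Meg3, followed the tissue order of Meg3, with mean levels of 2.35 in brain, -0.03 in muscle, -1.23 in heart and -4.19 in liver. Brain exceeded liver for 3 of 3 tested genes of the list (Mirg by 6.54, Begain by 10.77). Of the Peg3 domain, Usp29 was at 3.21 in brain and was well above background on 1 of 6 livers. Over 25 other imprinted genes, 13 were higher and 5 lower in heart than in liver (32.3% and 34.4% of all probes), and 12 were higher and 8 lower in brain than in liver (33.4% and 45.6%). Nnat, a paternally expressed membrane protein gene, was brain-high (mean level 3.01), while the amino acid transporter gene Slc38a4 was liver-high (6.32) and 11.11 lower in brain. On distal chromosome 7, 5 of 11 genes were higher and 5 lower in brain than in liver, with the transporter gene Slc22a18 at 6.43 in liver and at most -1.13 in the other tissues by mean.

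None of the genes of these lists differed between genotypes after adjustment. Of the other imprinted genes, 4 of 21 tested in heart were lower in Rap1 KI/KI mice without overlap (11.7% of named genes) and 0 higher (3.38%). In the Mest domain 2 of 2 genes tested in heart, Copg2 and Klf14, were lower without overlap too. Peg10 in liver was 0.73 lower without overlap (SE 0.22), 1 of 21 there (1.89%), and on distal chromosome 7 Nap1l4 in heart was 0.64 lower (SE 0.24), 1 of 2 such genes among 10. Zim1 in heart was well above background in the 3 Rap1 KI/KI mice and in 0 of 3 WT mice, so it was tested only through the group in which it was higher. By age in muscle, Mirg (-1.81, SE 0.41), Plagl1 (-1.37, SE 0.38), Zim1 (-1.10, SE 0.27), Calcr (-0.99, SE 0.30), Atp10a (-0.93, SE 0.32) and Magel2 (-0.67, SE 0.23) were lower at 5 months at an unadjusted p under 0.05, and Asb4 (0.81, SE 0.31) was higher. All had an adjusted p of 0.691 or more (limma), and these were named after their values were seen. Across the 21 other imprinted genes tested in muscle, 11 were below 0 (39.6% of probes), 4 were lower in both genotypes (10.1%) and 5 were higher in both (18.6%), with a median of -0.03.

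Several genes of the insulin-like growth factor axis were highest in liver. Igf1, the main ligand after birth, was at 6.97 in liver, 2.47 in muscle, 1.40 in heart and -1.65 in brain, which is 8.63 lower in brain than in liver (SE 0.34, adjusted p = 1.52e-14). The growth hormone receptor gene Ghr (6.65 in liver) and the binding protein gene Igfbp1 (5.79) were liver-high as well, and the receptor gene Igf1r was 3.54 higher in brain than in liver. The binding protein gene Igfbp5 was highest in muscle (6.07). Of 19 genes of the axis, 13 were lower and 4 higher in brain than in liver (45.6% and 33.4% of all probes). Between genotypes 0 of 17 to 19 tested genes per tissue passed adjustment. Genotypes did not overlap for 4 of 17 genes in heart, with Igf1 (0.87, SE 0.29) and Igfbp7 (0.49) higher in Rap1 KI/KI mice and Igfals (-1.18) and Igf2r (-0.33) lower, where 3.38% and 11.7% of named genes were so. In brain Igf1r (0.16) and Igf2r (0.10) were higher without overlap (5.78% of named genes), in muscle Igfbp5 (-0.94, SE 0.31) and Igf2r (-0.23) lower (3.96%), and in liver 0 of 19. For the other cell cycle inhibitors, 6 of 6 were higher in heart and 6 of 6 in muscle than in liver, as Cdkn1c was, against 32.3% and 36.2% of all probes.

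The genes most like each member were found over the 24 arrays of all 4 tissues. By Pearson correlation among 18311 named genes, H19 was closest to Klhl41, a gene of the sarcomere (r = 0.98), Cdkn1c to the muscle genes Pgam2 and Tcap (r = 0.99 for each), Meg3 to its neighbour Mirg (r = 0.99), Dlk1 to the acetylcholinesterase gene Ache (r = 0.98), Peg3 to Ephx4 (r = 0.96), Ndn to Slc22a17 (r = 0.99) and Snrpn to Fez1 and Vamp2 (r = 0.98), genes of axons and synaptic vesicles. Igf2 and Mest were closest to Hif3a (r = 0.94) and Rgs2 (r = 0.89). Between the genes themselves, r over 24 arrays was 0.96 for Ndn and Snrpn, 0.95 for Meg3 and Peg3 and 0.34 for H19 and Igf2. Within the 6 muscles Meg3 and Peg3 had r = 0.99, within the 6 hearts 0.91, within the 6 livers 0.66 and within the 6 brains -0.05, while H19 and Igf2 had 0.93 within brain, 0.80 within heart, 0.47 within muscle and 0.35 within liver. These are descriptions over arrays that share mice, slides and tissue composition, and the high value of H19 and Igf2 in brain includes KI3.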

How the data were processed

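RNA of 24 tissue samples was labelled with Cy3 and hybridised to 1-colour Agilent arrays. The authors used Agilent Feature Extraction 12.0.3.1, and the deposited processed signals are background-corrected intensity values with no normalization between arrays. The authors' deposited series table holds scores, the z-scores of log10 signal within each array, used as an alternative. Control and outlier spots were left out, spots of a probe averaged, and log2 values taken relative to each array's 75th percentile. Probes were named by accession (RefSeq, GRCm38.p6), which left 27350 of 55681 unnamed. A probe was tested in a tissue when at least 3 of 6 arrays had it well above background, and over 24 arrays when this held in at least 1 tissue. Tests were two-sided limma fits (version 3.58.1, R version 4.3.3) with Benjamini-Hochberg adjustment over all probes tested, from code first tested on simulated data. Every member is given in every tissue. List genes were eligible where genotypes did not overlap (at most 5 a list and tissue) or among the 5 brightest, and only some of these are named. A list gene that is not named may also lack overlap. Members and lists were chosen with earlier results of these data known. Tissues of the same mouse had deviations correlated by -0.22 to 0.26 (median 0.05, 36 pairs), and the mouse was tried as a replicate block. Other alternatives were quantile and normexp processing (offset 50, on median signals), other filters, the mean over probes, slide and age terms, WT arrays alone and leaving out each mouse.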

Additional observations from a re-analysis of the deposited data

How the results depend on the processing

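With 3 mice a group, and 2 against 4 for age, the intervals of most differences spanned several-fold, and Igf2 in liver, near background, gives little more than a bound there. The genotype comparison gave 0 probes under every alternative, the mouse as a replicate block included (18641 probes then differed between muscle and heart, and the genes called were 9 for muscle and liver, 8 for heart and liver, 8 for brain and liver, 7 for muscle and brain, 7 for heart and brain and 3 for muscle and heart, as without the block; no call changed). Probes called by age in liver (1) were 0 after quantile normalization, 0 with z-scores, 0 without a filter, 6 with the filter on all arrays, 4 without the genotype term and 320 after normexp. Genes called between muscle and heart (3) were 5 after normexp. With slide as a covariate, 17000 probes and 5 genes were called for muscle against liver and 18343 probes and 5 genes for heart against liver. With probes well above background on all arrays, 18306, 18595, 17516, 17809 and 19798 probes were called for muscle against brain, muscle against liver, heart against brain, heart against liver and brain against liver, where fewer probes were tested, and 12108 for muscle against heart with the 12 WT arrays. Genes lower at 5 months in both genotypes were 0 in brain after quantile normalization and 0 with z-scores, and 1 in heart with z-scores. Some differences turned direction, none of them past the threshold by default: after normexp, Igf2 muscle minus brain (0.026) and heart minus brain (0.033); with z-scores, Ndn muscle minus heart (-0.013) and Mest heart minus brain (-0.0097); with the mean over probes, Snrpn muscle minus heart (0.47) and Mest heart minus brain (-1.61, adjusted p = 3.26e-05, limma), the latter from the probes described above; with slide as a covariate, muscle minus heart of Peg3 (-0.31, by default 0.91), Ndn (-0.14) and Snrpn (0.26). The cause of the other changes was not tested.

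Leaving out each mouse in turn gave 0 to 4 probes for age in liver, 0 to 4 in brain, 0 to 1 in muscle and 0 to 4 for the interaction, and 2 to 4 genes for muscle against heart. Among tissue differences, the range was -0.56 to 0.11 for Igf2 and -0.061 to 0.13 for Ndn and -0.16 to 0.18 for Snrpn (muscle minus heart), -0.44 to 0.11 for Igf2 (heart minus brain) and -0.19 to 0.76 for Dlk1 (heart minus liver). Among age differences it was -0.62 to 0.16 for Mest in liver, -1.48 to 0.0056 for Dlk1 in heart and -0.079 to 0.57 for Snrpn in muscle. Genes lower in both genotypes were 4 to 6 in liver, 1 to 3 in brain, 3 to 7 in heart and 6 to 7 in muscle. Leaving out any mouse only loosens this rule. The counts could therefore not fall below their default, and their ranges are no check of it. With a 5-month mouse left out, the count covered the other genotype alone. The heart count was 7 without KI1 and 7 without KI2, and the brain count was 3 without KI1, 1 without WT3 and 2 without any other mouse. Of 804 values of 54 tissue differences, 758 kept direction and side of the threshold, 17 lost and 12 gained a call and 17 turned direction.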

Other observations

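The 6 named genes whose 5-month mouse was below both 2-month mice of its genotype in all 4 tissues were, with H19, the procollagen-processing protease gene Adamts14 (-0.93 in muscle, SE 0.28), C1qtnf6 (-2.47 in liver, SE 0.54), the basement membrane collagen gene Col4a5 (-1.25 in muscle, SE 0.29), Pabpc4l (-1.93 in heart, SE 0.48) and Ppic (-0.49 in muscle, SE 0.23). Values are log2 differences of 5 minus 2 months, and none passed adjustment over all probes (limma, adjusted p of 0.199 or more). Each gene beside H19 is shown in a single tissue, and its smallest difference was in another. In liver this was -0.20 for Adamts14 (SE 0.20), -0.60 for Pabpc4l (SE 0.49) and -0.20 for Ppic (SE 0.20). It was -0.25 for C1qtnf6 in brain (SE 0.27) and -0.29 for Col4a5 in heart (SE 0.26). The liver mean of C1qtnf6 at 5 months was -7.42. A Meg3 probe well above background on no liver had a mean of -7.81 there. In brain 6 of 6 proliferation genes tested had a difference below 0 (44.5% of probes), and 4 of 6 were lower at 5 months in both genotypes (8.14%). Slide and age cannot be told apart there. In muscle 3 of 5 of them were below 0 (39.6% of probes). Neutrophil markers were below 0 in heart for 6 of 6 (median -1.83, 52% of probes). In muscle all 6 were above 0 (median 2.18), where 39.6% of probes were below 0. There 1 of 6 was higher at 5 months in both genotypes (18.6% of probes). KI1 had the summed level given above, while WT1 (0.23) lay between WT2 (1.47) and WT3 (-0.33).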
